A study of Mus musculus with 9 samples.

Results

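The megalin-cubilin endocytosis genes are 9 genes of the machinery with which the proximal tubule of the kidney takes filtered proteins and vitamins back from the primary urine. They were chosen by symbol in the deposited table of gene expression. The rule uses no measured value, but the genes were listed with earlier results of these data known. All 9 of them (Lrp2, Cubn, Amn, Dab2, Fcgrt, Clcn5, Ocrl, Folr1 and Lrpap1) were among the 13081 genes of the table. Whole kidneys of wild type mice of 2 ages were profiled by sequencing of transcript ends, with 4 libraries at 3 months (young) and 5 libraries at 16 months (old). No treatment and no altered allele is given for either group, and neither strain nor sex is given in the labels. The comparison asked which transcripts of this uptake route differ between young and old kidney.

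Megalin, the product of Lrp2, and cubilin, the product of Cubn, are very large receptors of the proximal tubule brush border that bind albumin, vitamin-carrier complexes and many small filtered proteins. Cubilin has no membrane anchor of its own and depends on amnionless, encoded by Amn. The loaded receptors are drawn into clathrin-coated pits, release their cargo in acidified endosomes and return to the surface, and loss of function in several of these genes in humans causes loss of protein in the urine.

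The young libraries held 5093029 to 6355095 reads over the listed genes and the old libraries 4486406 to 5794960. Values are normalised counts, meaning reads of a gene scaled by the size factor that the authors set for its library. Differences are log2 fold changes of old minus young with their standard error (SE) from limma on log2(normalised count + 1). A gene was called when its p-value, adjusted by the Benjamini-Hochberg method over the 12667 genes tested, was under 0.05. The titles of the libraries carry one prefix for every young and another for every old sample, so age and any difference in how or when the 2 sets were prepared cannot be told apart. The replicates are numbered in the order of listing. The design text counts mice and the labels do not otherwise tie each library to its own animal. If libraries shared an animal, the p-values measure only the spread between these libraries. Mitochondrial genes took 27.0% to 29.7% of the reads in young and 35.8% to 38.1% in old libraries, and the part of this difference in the results was not tested beyond the rescaling given below.

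The tissue label was checked against 12 markers of the proximal tubule, the segment that carries the receptors. All 12 were in the table, and Slc34a1, the brush border phosphate transporter, stood at 18725 ± 348 (SD, n = 4) normalised counts in young and 19329 ± 2366 (SD, n = 5) in old kidney. The summed level of the 12 markers was 55947 to 60512 normalised counts in young and 52451 to 69453 in old libraries, so the groups overlapped. Of the 12 markers 3 were called higher and 5 lower in old. In such bulk libraries fewer cells of a type and less RNA per cell cannot be told apart. Marker lists of other cells differed in both directions. The summed levels of 4 lists were higher in every old than in any young library: 5 endothelial markers (3 called higher) at 1014 to 1167 in young and 1425 to 1675 in old, 4 leukocyte markers (2 of 3 tested called higher, Cd79a not in the table) at 116 to 146 and 198 to 262, 3 distal convoluted tubule markers (2 higher, 1 lower) at 2019 to 2722 and 3977 to 4849.7, and 4 thick ascending limb markers (1 higher) at 7269.9 to 7960.3 and 8391 to 11748. The summed level of 4 intercalated cell markers (1 higher, 3 lower) was lower in every old library, at 619.9 to 689 in young and 424 to 535 in old. That of 4 adipocyte markers was 2525 to 3992 in young and 688 to 1564 in old, but it followed Lpl, while the mean log2 level of the list was 3.94 to 7.35 in young and 3.78 to 8.01 in old, with 0 of 3 tested called higher and 1, Lpl, called lower. The ages overlapped for 4 principal cell markers (2 lower) at 1400.4 to 2106 and 616 to 2681, and for 5 podocyte markers (3 higher, 1 lower) at 685 to 753 and 736 to 869.9. Such sums follow the most abundant gene of a list. By the mean log2 level the podocyte markers did not overlap, at 6.42 to 6.54 in young and 6.73 to 6.88 in old, and the thick ascending limb markers did, at 8.94 to 9.20 and 9.18 to 9.70. The part of these cells in the values of the 9 genes was not tested.

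Of the 9 genes, 5 were called, of which 4 were higher (Clcn5, Lrp2, Amn and Folr1) and 1 was lower (Cubn) in old kidney. This share of 55.6% stands beside 59.7% called among all tested genes, with 29.2% called higher and 30.5% called lower. Rescaled without the mitochondrial genes, 58.5% of all calls were higher in place of 48.9%, the median of all genes moved to 0.13, and 7 of the 9 genes were called beside 60.5% of all genes tested in that setting. The values of the 2 ages did not overlap for 4 of the 9 genes (44.4%), against 49.0% of all tested genes. The median log2 fold change of the 9 was 0.19 and that of all tested genes -0.0027, and the median size without regard to direction was 0.37 against 0.56. The total share called and the share without overlap were near those of the table. The split by direction was 44.4% higher and 11.1% lower, on 9 genes. The co-receptors went in opposite directions, Lrp2 higher and Cubn lower.

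**Figure D1:**
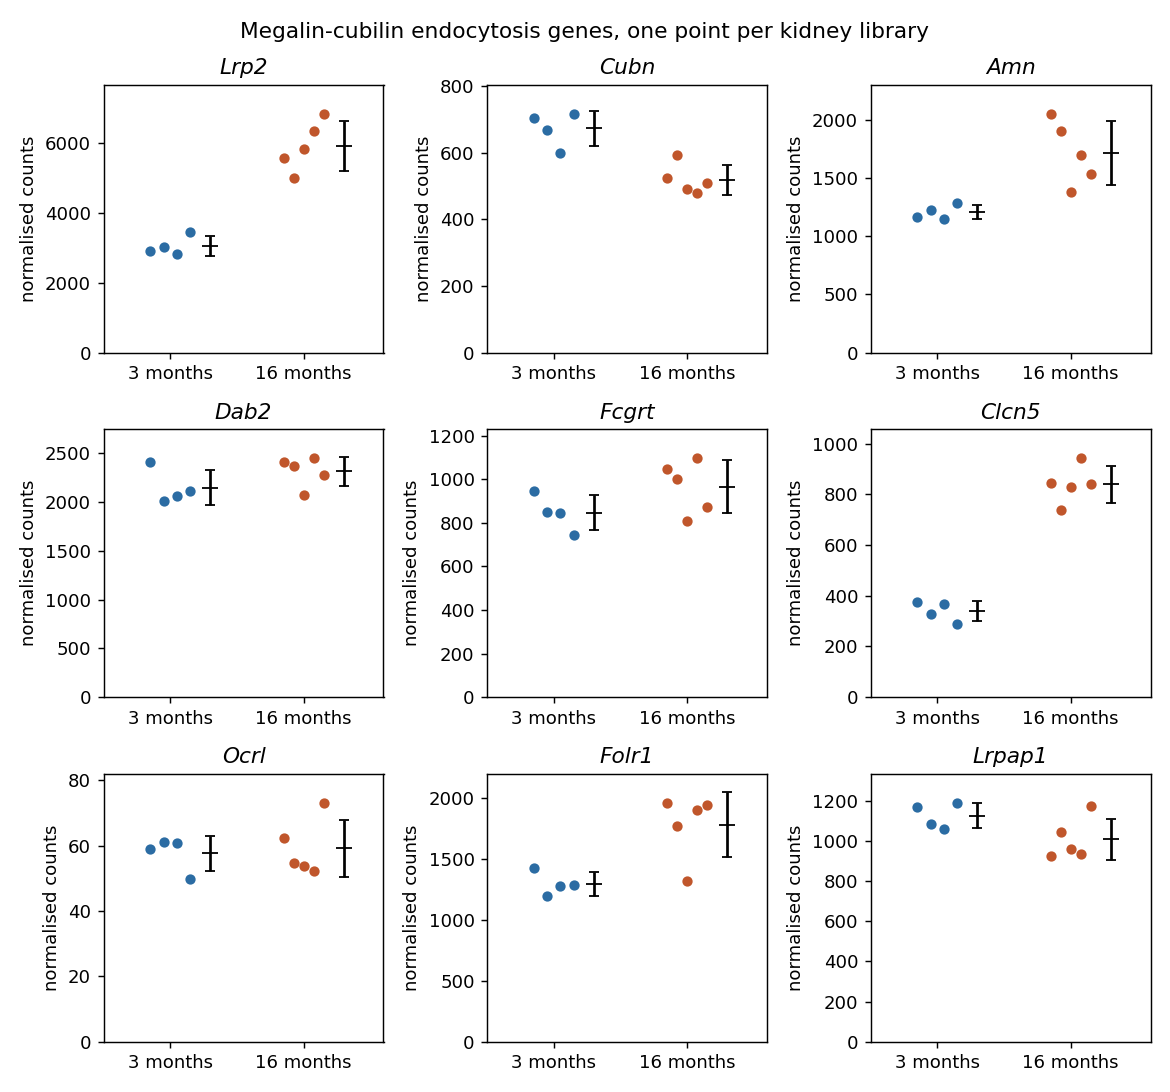
Normalised counts of the 9 genes in each library, with the 4 young libraries (3 months, blue) and the 5 old libraries (16 months, orange) in order of replicate number. The bars beside the points are the mean ± SD, every axis starts at 0, and the groups are apart for Lrp2, Cubn, Amn and Clcn5.

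The receptors come first. Lrp2 encodes megalin, an endocytic receptor of the low-density lipoprotein (LDL) receptor family. It lies at chr2:69424340-69586065 on the minus strand (GRCm38, GENCODE vM21), and its longest transcript has 15460 bases in 79 exons. Young replicates 1 to 4 had 2919.6, 3014, 2808 and 3462 normalised counts of Lrp2, and old replicates 1 to 5 had 5562, 5001, 5816, 6349 and 6835. Every old library was above every young library, the lowest old value being that of replicate 2. The mean rose from 3051 ± 287 (SD, n = 4) to 5913 ± 708 (SD, n = 5), a log2 fold change of 0.95 (SE 0.10, 95% interval 0.73 to 1.17, limma adjusted p = 3.45e-07), or 1.93-fold. Only 47 of the 12455 tested genes with a known length have a transcript at least as long as that of Lrp2. In each library a trend against transcript length was fitted to the deviation of every gene from its own mean over the 9 libraries. Such a trend can hold a part of the difference between the ages. With this length trend removed, the Lrp2 difference was 0.24 (limma adjusted p = 0.0360), which was still called.

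Cubn encodes cubilin, the peripheral co-receptor that binds albumin and the complex of vitamin B12 with intrinsic factor. It lies at chr2:13276338-13491813 on the minus strand, with a longest transcript of 11262 bases in 67 exons. Cubn stood at 704, 668, 600.0 and 717 normalised counts in young replicates 1 to 4 and at 523, 592, 489.8, 478 and 510.3 in old replicates 1 to 5. The groups were adjacent without overlap, since young replicate 3 and old replicate 2 were the nearest libraries. The mean fell from 672 ± 52.5 (SD, n = 4) to 519 ± 44.6 (SD, n = 5), with a log2 fold change of -0.37 (SE 0.10, 95% interval -0.58 to -0.17, limma adjusted p = 0.00272). The difference was -0.95 with the length trend removed and -0.23 (limma adjusted p = 0.0471) with mitochondrial genes left out, so it kept its direction while its size varied. Of the 12455 genes with a known length, 189 have a transcript at least as long as that of Cubn.

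Amn encodes amnionless, the transmembrane partner that carries cubilin to the surface. The gene lies at chr12:111271095-111276426 on the plus strand and is short, with a longest transcript of 1701 bases in 12 exons. Young replicates 1 to 4 had 1168, 1222, 1149 and 1282 normalised counts, and old replicates 1 to 5 had 2053, 1908, 1381, 1696 and 1535. All old libraries were above all young ones, and the old values spread over a wider range. The mean rose from 1205 ± 59.8 (SD, n = 4) to 1715 ± 272 (SD, n = 5), a log2 fold change of 0.49 (SE 0.11, 95% interval 0.27 to 0.72, limma adjusted p = 0.000689). It was 0.78 with the length trend removed. Amn thus rose while Cubn, whose product it carries, fell.

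Folr1 encodes folate receptor alpha, a lipid-anchored receptor that binds filtered folate at the brush border. It lies at chr7:101858331-101870788 on the minus strand, and Anapc15 lies on the opposite strand there, which the strand-aware counting of the authors separates. Its normalised counts were 1427, 1197, 1277 and 1288 in young replicates 1 to 4 and 1966, 1773, 1324, 1905 and 1945 in old replicates 1 to 5. Old replicate 3 lay below young replicate 1, so the groups overlapped through that library, while the other 4 old libraries were above all young ones. The mean rose from 1297 ± 95.7 (SD, n = 4) to 1783 ± 267 (SD, n = 5), a log2 fold change of 0.45 (SE 0.11, 95% interval 0.21 to 0.68, limma adjusted p = 0.00212). With the length trend removed it was 0.79.

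Lrpap1 encodes the receptor-associated protein, a chaperone of the endoplasmic reticulum that keeps megalin and its relatives from binding ligand too early. It had 1062 to 1192 normalised counts in young and 928 to 1173 in old libraries. The difference was -0.16 (SE 0.09, 95% interval -0.36 to 0.03, limma adjusted p = 0.142), and the test did not call it. Without old replicate 5, the highest old library for this gene, the difference was -0.22 (limma adjusted p = 0.0414).

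Dab2 encodes the clathrin adaptor that binds the cytoplasmic tail of megalin. Its normalised counts were 2011 to 2405 in young and 2074 to 2448 in old libraries, which overlapped over nearly the whole range. The difference was 0.11 (SE 0.09, 95% interval -0.08 to 0.30, limma adjusted p = 0.309). It was called at 0.25 (limma adjusted p = 0.0169) with the mitochondrial genes removed before rescaling, and was -0.0065 (limma adjusted p = 0.956) with the length trend removed.

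Among genes of the endosome, Clcn5 had the largest change of the 9 in the main test. It encodes a chloride-proton exchanger of early endosomes that takes part in their acidification and is mutated in human Dent disease. It lies at chrX:7153810-7319358 on the minus strand, with 5 microRNA genes inside it on the same strand. Young replicates 1 to 4 had 376, 329, 368 and 288 normalised counts of Clcn5, and old replicates 1 to 5 had 846, 737, 831, 943 and 841. The groups were far apart, the nearest libraries being young replicate 1 and old replicate 2. The mean rose from 340.2 ± 40.3 (SD, n = 4) to 839.7 ± 73.0 (SD, n = 5), a log2 fold change of 1.30 (SE 0.10, 95% interval 1.09 to 1.52, limma adjusted p = 5.87e-09), or 2.47-fold. Of all tested genes, 94.6% had a smaller log2 fold change than Clcn5 and 88.9% a smaller one than Lrp2. The value for Clcn5 was 0.87 with the length trend removed, a setting in which that of Cubn was larger in size, at -0.95.

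Ocrl encodes a phosphoinositide phosphatase of coated pits and endosomes that is mutated in human Lowe syndrome. It was the least covered of the 9, with 50 to 72 reads per library, at which counting error alone amounts to as much as 14.1% of the value. Its normalised counts were 49.8 to 61.2 in young and 52.2 to 73.2 in old libraries, which overlapped. The difference was 0.03 (SE 0.17, 95% interval -0.32 to 0.38, limma adjusted p = 0.883), and the test did not call it. The median SE of all tested genes was 0.18.

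Fcgrt encodes the heavy chain of the neonatal Fc receptor, which returns albumin and immunoglobulin G from endosomes. It had 746 to 944 normalised counts in young and 806 to 1097 in old libraries. The groups overlapped, and old replicate 3 was the lowest old library, as it was for Amn, Folr1 and Dab2. The difference was 0.19 (SE 0.11, 95% interval -0.04 to 0.41, limma adjusted p = 0.142). It passed the threshold in 3 settings: 0.33 (limma adjusted p = 0.00866) with mitochondrial genes left out, 0.46 (limma adjusted p = 0.000812) with the length trend removed, and 0.25 (limma adjusted p = 0.0455) without old replicate 3.

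**Figure D2:**
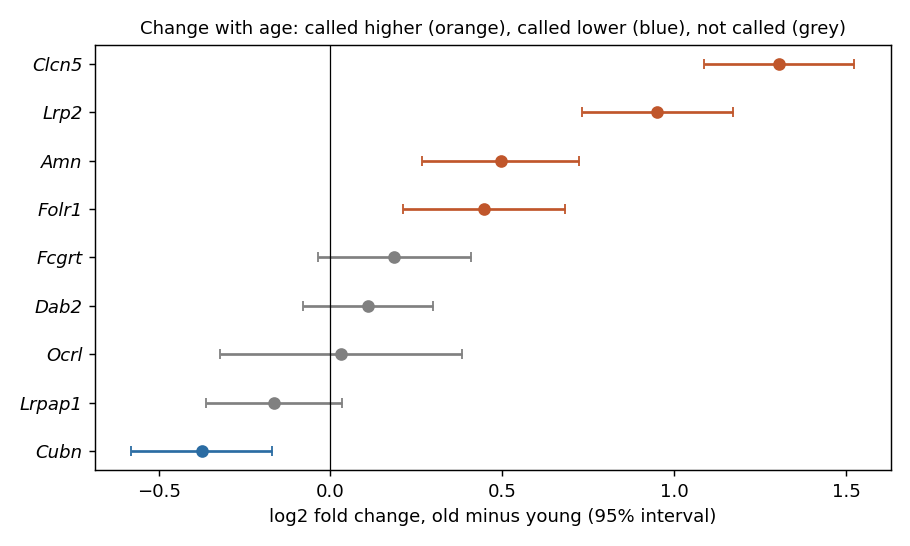
Log2 fold change (old minus young) of each of the 9 genes with its 95% interval from limma, in order of size. The 4 genes called higher (orange) run from 0.45 for Folr1 to 1.30 for Clcn5, Cubn (blue) is the gene called lower at -0.37, and the intervals of the 4 genes in grey include 0.

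The summed level of the 9 genes was 10226 to 11173 normalised counts in young and 13738 to 16059 in old libraries. Without Lrp2 the sum was 7418 to 8253 in young and 7922 to 9841 in old, so old replicate 3 then lay within the young range. The 9 genes took 0.201% to 0.225% of all reads in young and 0.275% to 0.296% in old libraries.

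In a ratio of a pair of genes within a library the size factor cancels, apart from the pseudocount of 1 added to each, and 8 ratios of partners were compared. Each was tested by an exact two-sided permutation test over the 126 divisions of the 9 libraries into 4 and 5, whose smallest possible p is 0.0159, and adjusted over the 8. The log2 ratio of Amn to Cubn was 0.84 ± 0.09 (SD, n = 4) in young and 1.71 ± 0.19 (SD, n = 5) in old. Young libraries lay between 0.73 and 0.94 and old libraries between 1.49 and 1.97, a difference of 0.87 (exact permutation p = 0.0159, adjusted p = 0.0254). The ratio was higher in each old library than in any young one, as Amn rose and Cubn fell.

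The log2 ratio of Lrp2 to Cubn was 2.05 to 2.27 in young and 3.08 to 3.74 in old libraries, a difference of 1.33 (exact permutation p = 0.0159, adjusted p = 0.0254). That of Lrpap1 to Lrp2, the chaperone to its client, was -1.54 to -1.32 in young and -2.76 to -2.26 in old, a difference of -1.11 with the same p-values. That of Dab2 to Lrp2 was -0.71 to -0.28 in young and -1.59 to -1.08 in old, a difference of -0.84, again with the same p-values. Relative to megalin, the transcripts of the chaperone and of the adaptor were lower in every old library than in any young one. With the length trend removed, an alternative chosen after seeing the data, the differences were -0.28 for Lrpap1 to Lrp2 (exact permutation p = 0.0159, adjusted p = 0.0317) and -0.25 for Dab2 to Lrp2 (exact permutation p = 0.0635, adjusted p = 0.0847). The ratio of Dab2 to Lrp2 then overlapped between the ages. In that setting Amn to Cubn differed by 1.72 and Lrp2 to Cubn by 1.19, without overlap.

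The largest difference of the 8 was that of Clcn5 to Clcn4, a second endosomal exchanger of the same subfamily. Its log2 ratio was -0.08 to 0.16 in young and 1.78 to 2.20 in old, a difference of 1.97 (exact permutation p = 0.0159, adjusted p = 0.0254). Clcn4 itself fell from a young mean of 325 ± 16.3 (SD, n = 4) to an old mean of 205 ± 26.6 (SD, n = 5), so the pair moved in opposite directions. For Ocrl to Inpp5b, its closest relative, the difference was 0.58 (exact permutation p = 0.0317, adjusted p = 0.0423). The groups overlapped, and Inpp5b fell by 0.55 on the log2 scale while Ocrl was not called.

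The ratio of Fcgrt to B2m, the light chain of the same receptor, differed by 0.21 (exact permutation p = 0.143, adjusted p = 0.163), and the groups overlapped. The ratio of Lrp2 to Lrp1, another very long receptor of the LDL receptor family, was 4.33 to 4.67 in young and 4.46 to 4.81 in old, a difference of 0.13 (exact permutation p = 0.222, adjusted p = 0.222). Lrp1 rose by 0.82 on its own, and its longest transcript of 14888 bases is close in length to that of Lrp2. With 3 young libraries the smallest possible p is 0.0357, which becomes 0.0571 when 5 ratios share it, so these 5 could not pass without young replicate 1, 3 or 4 (exact permutation test). The difference of Amn to Cubn was 0.81 to 0.92 with each library left out, that of Lrp2 to Cubn 1.27 to 1.43 and that of Clcn5 to Clcn4 1.93 to 2.03. The difference of Ocrl to Inpp5b was 0.41 to 0.67 with each library left out. Its adjusted p (exact permutation test) was 0.0952 without young replicate 1, 3 or 4. It was 0.0653 to 0.0762 without old replicate 1, 3, 4 or 5. With the length trend removed the difference was 0.38 (exact permutation adjusted p = 0.0847).

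**Figure D3:**
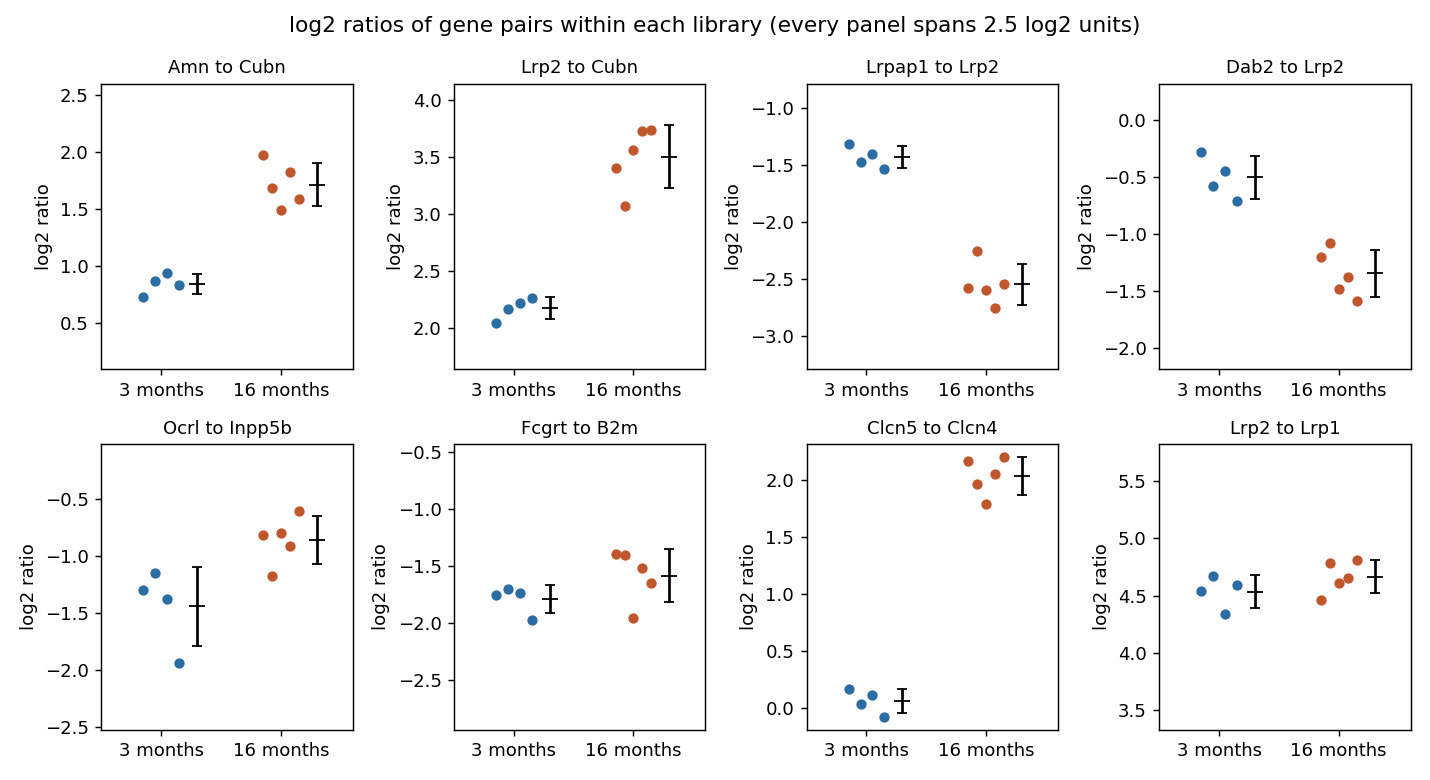
Log2 ratio of 8 pairs of genes in each of the 4 young (blue) and 5 old (orange) libraries, with mean ± SD beside the points; every panel spans the same range. The ages are apart for Amn to Cubn, Lrp2 to Cubn, Lrpap1 to Lrp2, Dab2 to Lrp2 and Clcn5 to Clcn4 and overlap for the other 3 pairs.

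The other genes of the route were described in 5 lists, whose shares of called genes stand beside the 59.7% called among all tested genes (29.2% higher, 30.5% lower). Of 25 tested genes of the clathrin coat and its AP-2 adaptor, 13 were called higher, 6 lower and 6 were not called (76.0% called, beside 59.7%), with a median log2 fold change of 0.31. Hip1r, which links coated pits to actin, rose by 1.77, with 135 ± 5.66 (SD, n = 4) normalised counts in young and 465 ± 49.0 (SD, n = 5) in old (limma adjusted p = 1.53e-10). Its relative Hip1 rose by 1.21 (limma adjusted p = 1.30e-05). Dnajc6, an auxilin that uncoats clathrin vesicles, fell by 1.72 from a low young mean of 61.4 normalised counts (limma adjusted p = 2.06e-06). Its relative Gak, named here after its values were seen, rose by 0.45. It had 239 ± 21.0 (SD, n = 4) normalised counts in young and 328 ± 30.0 (SD, n = 5) in old (limma adjusted p = 0.00142). Ap2a1, an alpha subunit of AP-2, fell by 1.33 (limma adjusted p = 0.000145). The alternative alpha subunit Ap2a2, named here after its values were seen, rose by 1.21, with 403 ± 18.1 (SD, n = 4) normalised counts in young and 934 ± 73.2 (SD, n = 5) in old (limma adjusted p = 3.18e-09). Synj2 was not in the table.

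Of 5 further partners of the megalin tail, 3 were called higher and 1 lower (80.0% called, beside 59.7%), with a median of 0.66. With a mean of at least 100, 66.7% of 3 were called, beside 72.5% of all genes. Ankra2, an ankyrin repeat protein that binds the tail of megalin, rose by 0.90 (limma adjusted p = 0.000219). Gipc1, which couples the receptor to the motor myosin VI, fell by 1.33, its young libraries averaging 108 ± 6.34 (SD, n = 4) normalised counts and its old libraries 43.1 ± 9.998 (SD, n = 5) (limma adjusted p = 3.47e-06). Partners of the same tail therefore differed in direction, while Dab2 was not called.

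Of 23 genes of early and recycling endosomes, 11 were called higher, 5 lower and 7 were not called (69.6% called, beside 59.7%), with a median of 0.24. With a mean of at least 100, 77.8% of 18 were called, beside 72.5% of all genes. Rab14, a GTPase of endosome traffic, rose by 1.24, with 1126 ± 22.4 (SD, n = 4) normalised counts in young and 2668 ± 130.3 (SD, n = 5) in old (limma adjusted p = 4.85e-10). Rabgef1, an activator of Rab5, rose by 1.03 (limma adjusted p = 0.000336). Rab11a, a GTPase of recycling endosomes, fell by 0.67 (limma adjusted p = 0.000164), as did Clcn4 by 0.67 (limma adjusted p = 5.54e-05).

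Of 14 tested relatives of megalin and chaperones, 4 were called higher, 5 lower and 5 were not called (64.3% called, near the 59.7% of all genes), with a median of -0.03. With a mean of at least 100, 44.4% of 9 were called, beside 72.5% of all genes. Mesd, a chaperone of these receptors, rose by 0.99 (limma adjusted p = 5.07e-06) and Lrp1 by 0.82 (limma adjusted p = 1.87e-05). Lrp12 fell by 2.35, with 37.7 ± 4.82 (SD, n = 4) normalised counts in young and 9.12 ± 8.25 (SD, n = 5) in old (limma adjusted p = 0.000396) and Lrp4 by 1.71 (limma adjusted p = 0.000296), both at low counts. The table did not list Lrp1b or Lrp8.

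Of 14 tested genes for ligands of the receptors or for their handling, 5 were called higher, 4 lower and 5 were not called (64.3% called, near the 59.7% of all genes), with a median of 0.13. With a mean of at least 100, 72.7% of 11 were called, beside 72.5% of all genes. Apoe, an apolipoprotein ligand, rose by 1.21, with 825 ± 115 (SD, n = 4) normalised counts in young and 1916 ± 325 (SD, n = 5) in old (limma adjusted p = 1.09e-07). Gc, the vitamin D-binding protein, rose by 0.71 (limma adjusted p = 0.0321) with groups that overlapped. Selenop, the selenium carrier that megalin takes up, fell by 1.70, with 5211 ± 669 (SD, n = 4) normalised counts in young and 1600.4 ± 190.7 (SD, n = 5) in old (limma adjusted p = 3.10e-10), and Ttr, transthyretin, fell by 1.30 (limma adjusted p = 0.00110). The table did not list Cblif, Lcn2, Cyp27b1 or Ambp. Rbp4, at 0.819 to 9.72 normalised counts in young and 2.80 to 49.7 in old libraries, was in the table but not tested. These are transcripts made in the kidney and say nothing of the filtered proteins themselves.

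**Figure D4:**
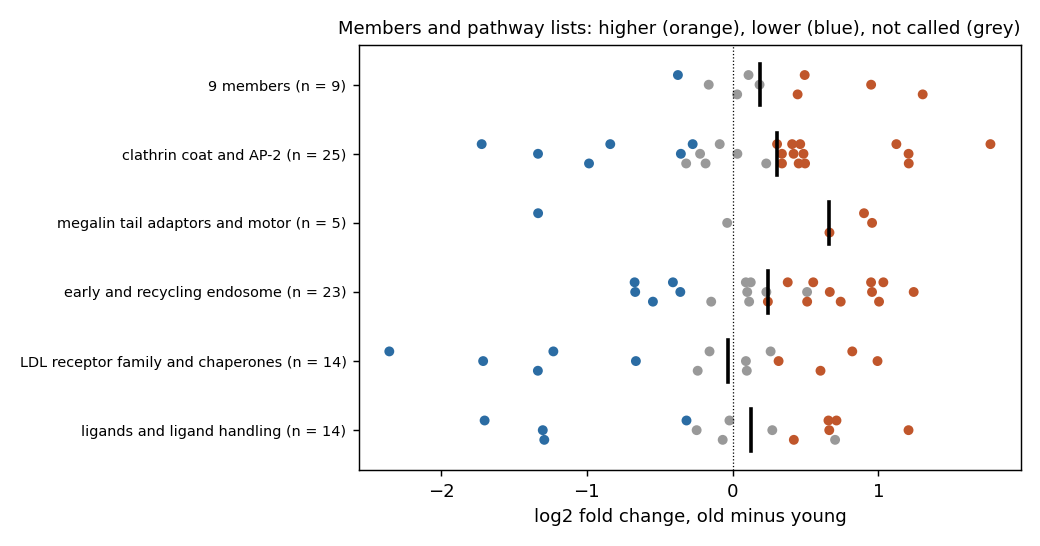
Log2 fold change (old minus young) of each tested gene of the 9 and of the 5 lists, called higher (orange), called lower (blue) or not called (grey), with the list median as a black bar. Every list holds genes on both sides of 0, and the medians run from -0.03 for the LDL receptor family to 0.66 for the tail adaptors.

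Likeness to Lrp2 was taken as Pearson r on log2(normalised count + 1) over the 9 libraries of both ages. Outside the 9 genes, those most like Lrp2 were Tln1 (r = 0.999), Strbp (0.996), Kdm5b (0.995), Ets2 (0.995) and Fam210a (0.994). This is a description over libraries that share their grouping by age. On the same scale r with Lrp2 was 0.94 for Clcn5, 0.79 for Folr1, 0.76 for Amn, 0.46 for Dab2, 0.41 for Fcgrt, 0.12 for Ocrl, -0.49 for Lrpap1 and -0.87 for Cubn. With the mean of each age taken away, r between Lrp2 and Clcn5 was -0.02 and that between Lrp2 and Cubn -0.23. Both values were far from those over all libraries. The highest values within age were 0.82 for Dab2 and Folr1 and 0.79 for Dab2 and Fcgrt, genes that were all lowest among old libraries in replicate 3. That library also had the highest old value of the principal cell marker Aqp2, at 2267 normalised counts against an old median of 469. Its Slc34a1 was the lowest of the old libraries, at 15793 against a median of 19068. The part of its cell make-up in these r values was not tested.

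**Figure D5:**
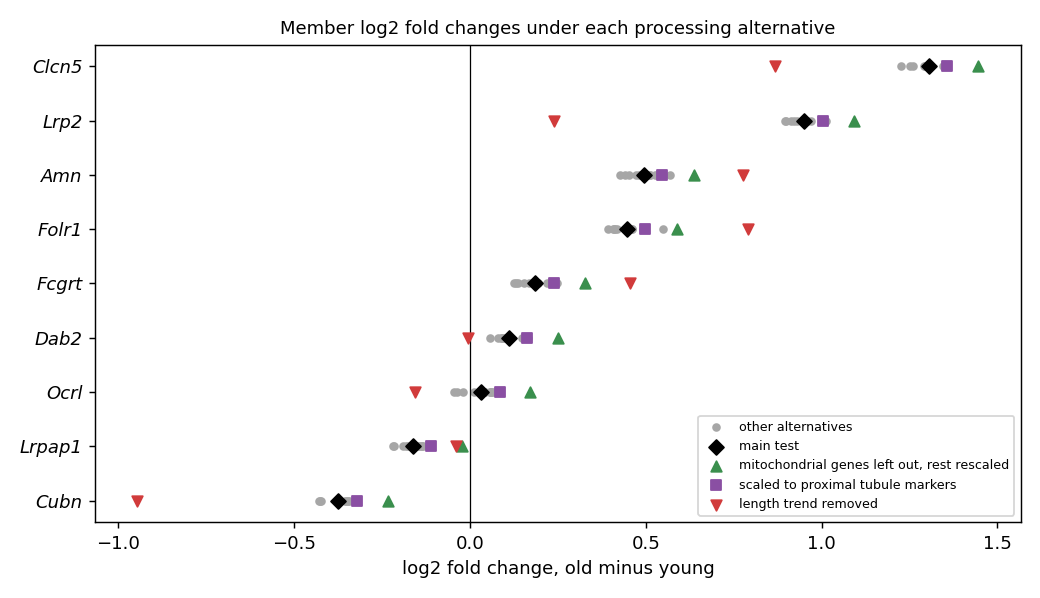
Log2 fold change (old minus young) of each of the 9 genes in the main test (black diamonds) and under the 21 alternatives. Clcn5, Lrp2, Amn and Folr1 stay above 0 and Cubn below 0 throughout, while the removal of the length trend (red) brings Lrp2 to 0.24 and Cubn to -0.95.

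The sequences before the start sites of the genes with the clearest differences are shown so that the opposite pair Lrp2 and Cubn can be compared with Amn and Clcn5. They are the 250 bases upstream of each RefSeq start (GRCm38.p6), on the strand of the gene, 5′ to 3′. The motifs CACGTG (an E-box), GTTAAT (an HNF1 half-site), CCAAT and TATAAA were searched on both strands. Capitals mark a match. Lrp2 is at chr2:69586030-69586279 (minus strand), Cubn at chr2:13491877-13492126 (minus strand) and Amn at chr12:111270846-111271095 (plus strand). Clcn5 has one start with the window chrX:7319359-7319608 and another with chrX:7188715-7188964 (both minus strand).
Lrp2: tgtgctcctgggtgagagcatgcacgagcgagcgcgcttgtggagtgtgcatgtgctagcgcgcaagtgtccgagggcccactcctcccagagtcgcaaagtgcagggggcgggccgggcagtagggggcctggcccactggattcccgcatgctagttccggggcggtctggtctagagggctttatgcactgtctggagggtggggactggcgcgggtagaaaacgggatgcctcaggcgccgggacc
Cubn: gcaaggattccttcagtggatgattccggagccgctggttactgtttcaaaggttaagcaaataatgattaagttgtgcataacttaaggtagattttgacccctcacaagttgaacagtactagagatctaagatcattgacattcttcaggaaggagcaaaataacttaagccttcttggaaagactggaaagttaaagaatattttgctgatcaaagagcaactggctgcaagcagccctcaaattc
Amn: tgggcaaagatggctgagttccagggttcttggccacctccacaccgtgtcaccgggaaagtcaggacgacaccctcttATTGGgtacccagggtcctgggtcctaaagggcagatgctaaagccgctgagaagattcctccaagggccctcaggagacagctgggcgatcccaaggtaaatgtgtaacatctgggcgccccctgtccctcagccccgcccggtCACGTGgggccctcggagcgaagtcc
Clcn5, first start: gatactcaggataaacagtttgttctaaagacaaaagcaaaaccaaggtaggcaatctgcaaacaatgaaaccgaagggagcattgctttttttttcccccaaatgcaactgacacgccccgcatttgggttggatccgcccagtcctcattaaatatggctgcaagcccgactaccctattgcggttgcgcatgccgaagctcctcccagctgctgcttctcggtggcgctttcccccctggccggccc
Clcn5, second start: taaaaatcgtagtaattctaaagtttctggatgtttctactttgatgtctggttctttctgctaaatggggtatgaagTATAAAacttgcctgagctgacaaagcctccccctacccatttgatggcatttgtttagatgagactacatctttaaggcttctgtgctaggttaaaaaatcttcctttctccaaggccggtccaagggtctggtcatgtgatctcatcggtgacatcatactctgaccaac

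Of the 9 genes, 8 were matched by symbol to a RefSeq start, in 10 windows, and Folr1 was not matched. The Amn window held CACGTG 26 bases before the start, a motif found in 6.02% of all 32851 windows of this length, and CCAAT on the minus strand 171 bases before the start, found in 33.8%. The second Clcn5 window held TATAAA 172 bases before the start (12.4% of all windows), and a Dab2 window held GTTAAT 65 bases before the start (6.43%). The letters searched were not in the Lrp2, Cubn and first Clcn5 windows. The Lrp2 window was rich in G and C (66.4%) and the Cubn window poor (39.6%), beside a median of 52.4% over all windows. The Amn window had 61.2%. These matches describe the sequence and are not measured sites.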

How the data were processed

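The deposited table holds a signal on the scale of counts: the authors aligned reads to GRCm39 with TopHat2 2.0.10 (Bowtie 1.0.0, SAMtools 0.1.19), counted them by strand on GENCODE vM26 with HTSeq 0.6.1 and divided the counts by a DESeq size factor. The labels name the V2 version of the QuantSeq kit and the methods the earlier one, and which was used is not known. The kit reads transcript ends, so a count does not grow with length by design. All values were whole multiples of 1 read within 0.01, and the lowest mean of any gene was 4.49, so rarer genes had been left out before deposition.

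limma 3.58.1 (lmFit, eBayes with trend; R 4.3.3) was run on log2(normalised count + 1) for the 12667 of 13081 genes that reached 10 normalised counts in 4 or more libraries, with all 9 libraries and no covariate. This scale understates changes of low genes. The fit was also run on simulated counts in which few genes changed, as many up as down. These data differ from that setting, with 59.7% of genes called, so the simulation says nothing of the scaling used here. Groups came from the age in the labels. The 9 genes, the lists, the ratios and the rules were chosen with earlier results of these data known. Named with values were the 9 genes, the ratio partners, in each list the called genes with the 2 largest and 2 smallest changes and the genes that were not tested, and the 5 genes most like Lrp2. A result that met this rule is not reported here.

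Alternatives were pseudocounts of 0.1 and 5, no filter, a mean of at least 100, TMM factors, equal totals, mitochondrial genes left out, scaling to proximal tubule markers, removal of a length trend (lowess; added for the ratios after the data were seen), robust eBayes, edgeR 4.0.16 and DESeq2 1.42.0 on recovered reads, and each library left out. Positions and lengths were read from GENCODE vM21 (GRCm38), an older build than that of the authors. No molecular identifiers are described for these libraries, so the counting error given is a lower limit on the error of a value.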

Additional observations from a re-analysis of the deposited data

Results flagged for a closer look

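In 4 groups a library stood far from the others, its gap to the nearest being a large part of the range of its group. Folr1 had a log2(normalised count + 1) of 10.4 in old replicate 3, where the other 4 old libraries had 10.79 to 10.94. The mean log2 level of the thick ascending limb markers reached 9.7 in old replicate 4, against 9.18 to 9.32 elsewhere among old libraries. That of the endothelial markers was only 7.5 in young replicate 4, against 7.62 to 7.63 elsewhere among young libraries. That of the leukocyte markers reached 5.3 in young replicate 1, against 4.83 to 4.90 for the rest of that age. In all, 52 groups of libraries were examined. Chance marks about 1 in 20, or 2.6 of them, and 4 were found.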

How the results depend on the processing

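Clcn5, Lrp2, Amn, Folr1 and Cubn kept their direction and their call under all 21 alternatives, edgeR and DESeq2 included, with 5 to 7 of the 9 genes called. Without each library in turn, the number called lower was 1 to 2, being 2 without old replicate 5. Leaving out mitochondrial genes moved the median of all genes to 0.13 and the share of calls that were higher from 48.9% to 58.5%, called 7 of the 9 (60.5% of all genes) and gave 0.25 for Dab2 and 0.33 for Fcgrt. With the length trend removed, Dab2 was -0.0065, Fcgrt 0.46 and Ocrl -0.16, and Ocrl was -0.020 with equal totals. Leaving out each library gave 0.13 to 0.25 for Fcgrt, -0.046 to 0.074 for Ocrl and -0.22 to -0.13 for Lrpap1. A filter on means of 100, where 72.5% of the 5655 genes tested were called, left 3 tail adaptors tested with 2 called in place of 4, and 9 genes of the LDL receptor family tested with 4 called in place of 9. All calls left in both lists were higher and 0 lower, and Ocrl was not tested there. Of the ratios 0 to 6 were called with each library left out, 0 being the count without young replicate 1, 3 or 4 and 6 that without young replicate 2 (adjusted p = 0.0476). The smallest p of the exact permutation test is then 0.0357, or 0.0571 adjusted where 5 ratios share it, so these counts say nothing of stability. The differences stayed at 1.27 to 1.43 for Lrp2 to Cubn, -1.19 to -1.06 for Lrpap1 to Lrp2 and -0.91 to -0.77 for Dab2 to Lrp2. The ratio of Ocrl to Inpp5b differed by 0.41 to 0.67 with each library left out. Its adjusted p (exact permutation test) was 0.0952 without young replicate 1, 3 or 4. It was 0.0653 to 0.0762 without old replicate 1, 3, 4 or 5. The ratio of Fcgrt to B2m passed the threshold without old replicate 3 (adjusted p = 0.0381, exact permutation test). With the length trend removed, a setting added after seeing the data, 4 ratios were called. The causes were not tested. The labels give no pairing between young and old libraries, so no paired analysis was run. Counting error was largest for Ocrl, at 50 to 72 reads.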
